A study of Mus musculus with 6 samples.

Results

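The tumour necrosis factor (TNF) ligands, their receptors, the TRAF adaptor proteins and the genes of the NF-κB system were examined in mouse cortical bone cultured with or without parathyroid hormone (PTH). Members were all gene symbols on the array that begin with Tnfsf, Tnfrsf, Traf or Tnfaip and a number, or with Nfkb or Ikbk, together with Rel, Rela, Relb, Tnf, Lta, Ltb, Ltbr, Fas, Fasl and Cd40. Tnfsf11, Tnfrsf11a and Tnfrsf11b, the RANKL, RANK and osteoprotegerin genes, were left out by that rule. It gave 72 symbols with 131 probes, of 31508 symbols and 45281 probes on the array. The 72 symbols stand for 70 genes, because Cd40 is also listed under its older name Tnfrsf5 and Fas under Tnfrsf6. Tnfsf5ip1, the older name of the proteasome assembly chaperone gene Psmg2, was matched through its symbol alone.

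Both groups were tibia and femur shafts of C57BL6 mice aged 3 months, prepared as hollow bone tubes by flushing out the marrow and digesting the surfaces with collagenase and trypsin. After a night in culture the tubes were kept for 24 hours without PTH (control, 3 arrays) or with 250 nM PTH 1-34 (PTH, 3 arrays). RNA came from pooled bones of 4 to 5 mice, about 10 bones per preparation, and was read on Illumina mouse bead arrays. The sources do not say whether the arrays of a group are separate cultures, so the p-values measure only the spread between these arrays, which may be technical.

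TNF family ligands bind trimeric receptors, which recruit TRAF adaptors and ubiquitin ligases and so switch on the IKK complex. IKK marks the IκB proteins for destruction, which frees NF-κB dimers to enter the nucleus, and several of the genes they switch on, among them Nfkbia and Tnfaip3, act to shut the pathway off again. In bone the pathway is known for its role in osteoclast formation and in the response to inflammation.

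A DNA letter pattern of the kind NF-κB binds, GGGANNTTCC on either strand, was present in the 250 bases before the start of 4 of the 55 members that have an entry in the RefSeq promoter table (7.27%; mouse build GRCm38.p6), against 368 of 27025 genes in that table (1.36%). The cyclic AMP response element TGACGTCA, a pattern bound by CREB, which acts downstream of the PTH receptor, was in none of the 55 and in 1.77% of all genes. The 4 members were Ltb, Nfkb2, Nfkbia and Tnfaip8l1, of which Nfkb2 and Nfkbia were measured well enough to be tested. The upstream bases of these 2 genes are shown because both belong to the pathway's own feedback, with the matched letters in capitals (read on the opposite strand in Nfkbia). Nfkbia is on the minus strand of chr12:55492648-55492897, and Nfkb2 is on the plus strand of chr19:46305680-46305929, the start of one of its transcripts.
Nfkbia: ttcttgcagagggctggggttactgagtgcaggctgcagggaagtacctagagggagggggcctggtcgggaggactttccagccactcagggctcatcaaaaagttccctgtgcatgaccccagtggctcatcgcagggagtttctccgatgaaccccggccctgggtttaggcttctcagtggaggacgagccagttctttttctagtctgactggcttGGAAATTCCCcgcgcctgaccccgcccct
Nfkb2: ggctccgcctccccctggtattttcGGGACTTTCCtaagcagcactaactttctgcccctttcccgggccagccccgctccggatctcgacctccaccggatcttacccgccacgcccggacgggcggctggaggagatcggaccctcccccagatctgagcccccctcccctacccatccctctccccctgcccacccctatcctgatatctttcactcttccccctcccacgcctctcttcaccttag
A match describes the letters in this window and is not evidence of binding.

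Of the 72 members, 42 were tested, those with at least 1 probe above background (detection p under 0.05) on 3 or more of the 6 arrays, and 39 of these were above background on all 6. A further 11 were above background on 1 or 2 arrays and 19 on none. The TRAF, IKK, IκB and NF-κB genes were mostly detected, whereas most of the ligands were not. Only 3 of the 16 ligands could be tested, against 15 of 25 receptors, 6 of 7 TRAF adaptors, all 3 IKK genes, 4 of 5 IκB genes, 4 of 5 NF-κB subunits and 5 of 8 TNFAIP genes. The 45 member probes above background on no array had raw signals between 85.2 and 134, so a level could not be given for them. Ligands in this state were Tnfsf4, Tnfsf5 (CD40 ligand), Tnfsf6 (Fas ligand), Tnfsf9, Tnfsf10 (TRAIL), Tnfsf12, Tnfsf12-tnfsf13, Tnfsf15 and Tnfsf18. The lymphotoxin genes Lta and Ltb, Tnfsf14 and Tnfsf8 were above background on 1 or 2 arrays. Among the receptors, Tnfrsf13c, Tnfrsf14, Tnfrsf17, Tnfrsf23, Tnfrsf6 and Tnfrsf7 (CD27) were above background on no array, and Tnfrsf18, Tnfrsf25, Tnfrsf4 and Tnfrsf8 on 1 or 2. Inside the cell, the adaptor gene Traf2 was above background on no array and the subunit gene Rel on 1. The other untested members were Nfkbil1, Tnfaip6, Tnfaip8l1, Tnfaip8l3 and Traf3ip1.

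**Figure D1:**
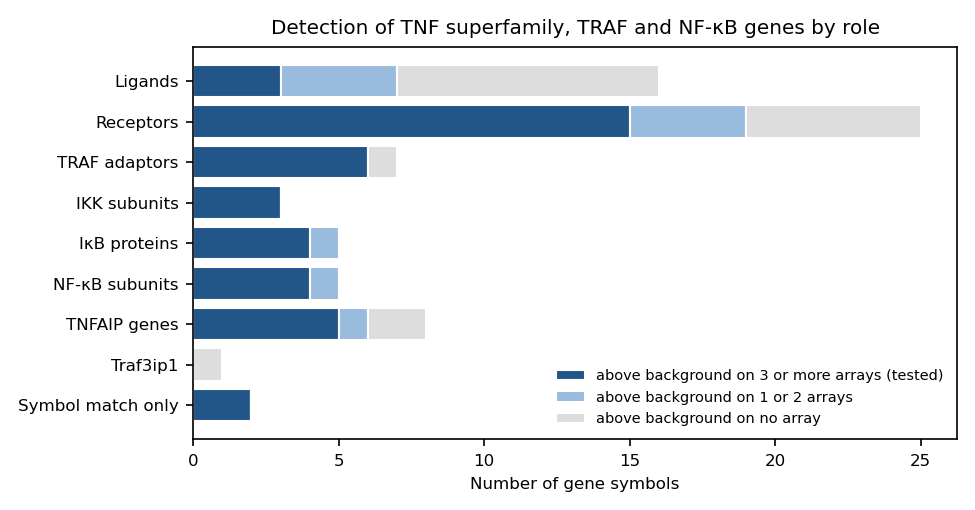
Number of gene symbols in each role that were above background on 3 or more arrays (dark), on 1 or 2 arrays (pale) or on none (grey), counted by the best probe of each symbol. Ligands had 3 of 16 symbols in the dark class, and the 3 IKK genes were all in it.

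The arrays were alike in the share of probes detected and in their correlations. Raw signals differed in scale before normalisation, as for Tnfaip1, at 2020, 2661 and 3559 in the PTH arrays. Between 34.2% and 38.4% of all probes were above background, and correlations between arrays over the normalised signals of the tested probes ran from 0.975 to 0.985. Dmp1, Mepe, Phex and Ibsp, which mark osteocytes and osteoblasts, were above background on all 6 arrays, while Fgf23 and Runx2 were on none. The summed level of the neutrophil markers was 54380 to 55230 in the control arrays and 34820 to 39510 in the PTH arrays, and that of the osteoclast markers was 11930 to 13410 and 16170 to 20680. The summed osteocyte and osteoblast markers were at 67400 to 73320 in control and 54830 to 58570 with PTH. The macrophage sums overlapped, at 13610 to 16230 and 12910 to 15470, but the brightest gene, Lyzs, weighs most in them. Of the 8 macrophage markers, 4 (50%, against 21.9% of all genes) had groups without overlap. C1qa (-0.74), C1qb (-0.72) and Emr1 (-0.27) lay lower with PTH and Cd14 (0.39) higher, and none of the 8 passed the adjusted threshold in limma. Of the genes of other blood cells, Cd79a, Ms4a1, Pax5, Cd3d, Cd3e, Cd3g, Cd4 and Cd8a were above background on no array, but Vpreb3, Nkg7 and Kit were on all 6 and Cd79b, Vpreb1, Blnk and Lck on 5. None of these 7 passed the adjusted threshold in limma, though Vpreb3, Blnk and Kit lay lower and Vpreb1 higher in every PTH array. Several TNF family receptors and NF-κB genes are used by these blood and bone cell types, and the part that shifts between the cells played in the results below was not tested. In such bulk RNA, fewer cells of a type cannot be told apart from less RNA per cell.

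To learn whether PTH altered the expression of these genes, normalised log2 signals of the PTH arrays were compared with those of the control arrays, using limma on every probe that passed detection and the brightest tested probe of each gene. None of the 42 tested members passed a Benjamini-Hochberg adjusted p of 0.05, against 207 of 11979 genes (1.73%), of which 82 were higher and 125 lower. The lowest adjusted p of a member was 0.0810. At an unadjusted p under 0.05 there were 10 members, 6 higher and 4 lower with PTH, which is 23.8% of those tested, against 14.9% of all genes. Student's t-test, named in the paper's statistics section, gave 10 members without adjustment (beside 14.9% of all genes) and 0 after it (beside 0.76%). The paper itself scored these arrays in GenomeStudio. With no background correction, 3 of the 42 members passed in limma, Tnfrsf10b and Tnfaip2 lower and Tnfrsf19 higher with PTH, and 4.91% of all genes passed. The same 3 passed with only probes above background at p under 0.01 on all 6 arrays, of 34 members then tested, beside 3.92% of all genes. In 15 members (35.7%) every PTH array lay to one side of every control array, against 21.9% of all genes. These 15 were 9 that lay higher with PTH (21.4%, against 11.1% of all genes) and 6 that lay lower (14.3%, against 10.8%). With scaling by array medians 7 members were left without overlap, and the share of all genes under that scaling was not counted. Calls over all genes also fell under it, from 207 to 103, and the drop is not read as a result about the members.

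The members as a group showed no common shift. Their median change was 0.05 on the log2 scale, against 0.01 over all genes tested, with 25 members above 0 and 17 below. Scaling by array medians moved the median of all genes to 0.12 and that of the members to 0.17. In 26 of the 42 (61.9%, against 67.8% of all genes) the change was within 0.25 in either direction. In 18 members, and in 6369 of the 11979 genes tested, the 95% interval of the brightest probe lay wholly within 1.5-fold in either direction. A larger change was outside the intervals of these probes. Among these 18 were Nfkbia, Nfkb1, Rela, Ikbkb, Ikbkg, Traf3, Traf7, Tnfsf13, Tnfrsf1a, Tnfrsf5, Tnfrsf12a, Tnfrsf19l, Tnfrsf21, Tnfaip1, Tnfaip8, Tnfaip8l2 and Tnfsf5ip1. For several of them the interval of another tested probe went beyond 1.5-fold, as for Nfkbia (to 0.75), Nfkb1 (to 0.92), Ikbkg (to -0.93) and Tnfaip8l2 (to -0.84). The entry named Cd40, the same gene as Tnfrsf5, reached 0.60. The standard errors had a median of 0.156 and ran from 0.111 to 0.307, and the widest interval, that of Tnf, reached from -0.90 to 0.52.

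**Figure D2:**
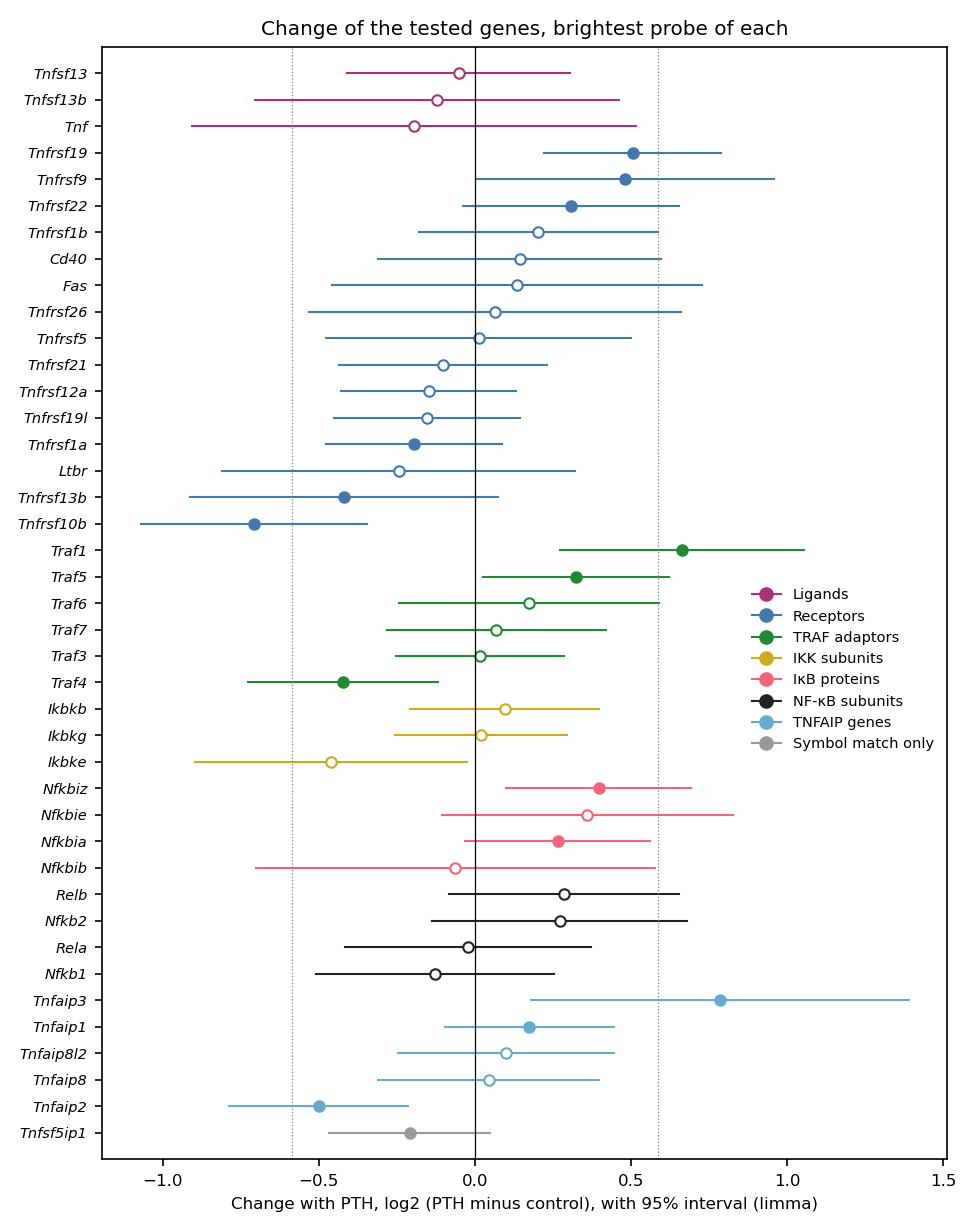
Change with PTH of the tested genes, all but 1 of the 42, on the log2 scale (PTH minus control), with the 95% interval from limma, coloured by role. Filled points are the 15 genes whose control and PTH arrays do not overlap, open points the others, and the dotted lines stand at 1.5-fold. Points lie on both sides of 0 in most roles, from -0.71 (Tnfrsf10b) to 0.78 (Tnfaip3).

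Of the 3 ligands that could be tested, none had arrays that separated. Over all genes 21.9% did, so 3 genes are too few to set the ligands apart. Tnf, the founding cytokine of the family, was at 5.02, 5.63 and 5.79 in the control arrays and at 4.88, 5.93 and 5.06 in the PTH arrays, near the detection limit and above background on 4 of the 6. The groups overlapped, and the change of -0.19 had a 95% interval from -0.90 to 0.52. Its other tested probe differed by 0.27. The gene of the B cell survival factor BAFF, Tnfsf13b, differed by -0.12 with an interval from -0.70 to 0.46. Tnfsf13, which encodes the related factor APRIL, had the narrowest interval of the ligands, from -0.41 to 0.31 around -0.05.

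Among the 15 tested receptors, 3 lay higher in all PTH arrays (Tnfrsf19, Tnfrsf9 and Tnfrsf22) and 3 lower (Tnfrsf10b, Tnfrsf13b and Tnfrsf1a). That is 40% without overlap, against 21.9% of all genes. None of the receptors passed the adjusted threshold, which 1.73% of all genes passed. Tnfrsf10b, the mouse death receptor for TRAIL, was at 10.40, 10.44 and 10.56 in control and at 9.93, 9.88 and 9.47 with PTH. All PTH arrays were below all control arrays, by 0.71 (SE 0.16) on average, with a limma adjusted p of 0.0810. A second, dimmer probe of Tnfrsf10b did not follow it, with a change of 0.14 (SE 0.28), and the mean of both was lower by 0.28. Tnfrsf19, the gene of the receptor TROY, was at 7.51, 7.44 and 7.47 in control and at 7.87, 8.11 and 7.94 with PTH. It was higher by 0.50 (SE 0.12) with an adjusted p of 0.105 in limma, and its control arrays lay close together, well below the lowest PTH array. Tnfrsf9, which encodes the costimulatory receptor 4-1BB, was at 6.0, 5.99 and 5.45 in control and at 6.27, 6.58 and 6.03 with PTH. The lowest PTH array lay just above the highest control array, the difference was 0.48 (limma adjusted p = 0.336), and the second probe differed by -0.03. Without the third control array the difference of Tnfrsf9 was 0.30, and with no background correction it was 0.20. Tnfrsf22, a mouse decoy receptor for TRAIL, was at 7.82, 8.10 and 8.12 in control and at 8.28, 8.51 and 8.17 with PTH. Both of its probes were higher with PTH, by 0.31 and 0.55, and in the dimmer one the groups overlapped.

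The 2 receptors for TNF itself differed little. Tnfrsf1a was at 6.78, 6.76 and 6.79 in control and at 6.47, 6.71 and 6.57 with PTH. Its brightest probe was lower in all PTH arrays, by 0.20 with a 95% interval from -0.48 to 0.09, whereas the other tested probes of this gene gave -0.13 and 0.23. Tnfrsf1b was at 6.53, 6.26 and 6.69 in control and at 6.70, 6.90 and 6.49 with PTH, with overlapping groups and a change of 0.20. The receptor of BAFF and APRIL on B cells, Tnfrsf13b, was at 5.16, 5.13 and 5.77 in control and at 5.11, 4.64 and 5.05 with PTH, a difference of -0.42 (limma adjusted p = 0.422), with only 1 PTH array above background. Its highest PTH array lay just below its lowest control array, and the difference was -0.21 without the third control array, -0.28 without the second PTH array and -0.14 with no background correction. For Fas, the receptor of Fas ligand, the change was 0.14 (95% interval -0.46 to 0.73). The interval was similar for Cd40, which gives antigen-presenting cells their signal from T cells, at 0.14 (-0.31 to 0.60), and for the lymphotoxin β receptor gene Ltbr, at -0.24 (-0.81 to 0.32). The entry of Cd40 under its older name Tnfrsf5, counted as a separate member, gave 0.01 (-0.48 to 0.50). Tnfrsf12a, which encodes the TWEAK receptor Fn14, and Tnfrsf21, the death receptor 6 gene, had changes of -0.15 and -0.10, and both were slightly above 0 with scaling by array medians.

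The TRAF adaptors link the receptors to IKK. Of the 6 tested, Traf1 and Traf5 lay higher in all PTH arrays and Traf4 lower, which is 50% without overlap, against 21.9% of all genes. None of the 6 passed the adjusted threshold, which 1.73% of all genes passed. Traf1, which is itself switched on by NF-κB in many cells, was at 5.73, 6.09 and 5.90 in control and at 6.62, 6.80 and 6.30 with PTH. It was higher by 0.66 (SE 0.17), with a limma adjusted p of 0.120. Its other tested probe was also higher in every PTH array, at 6.22, 6.98 and 7.39 against 5.21, 5.46 and 6.08, a difference of 1.28 (SE 0.33). When the tested probes of each gene were averaged, Traf1 was higher by 0.97 and passed in limma (adjusted p = 0.0415). It was the only member to do so in that setting, where 270 of all genes (2.25%) passed. With no background correction its brightest probe was higher by 0.30 (limma adjusted p = 0.0879).

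Traf4 and Traf5 each had probes that disagreed. Traf4, an adaptor known mainly from epithelial cells and development, was at 6.88, 6.95 and 6.91 in control and at 6.29, 6.59 and 6.58 with PTH, lower by 0.42 (SE 0.13), while its second probe differed by 0.21 with an SE of 0.38. Traf5, an adaptor of CD40 and other lymphoid receptors, was at 5.90, 5.71 and 5.84 in control and at 6.26, 6.02 and 6.14 with PTH. Its second probe was at 5.07, 5.44 and 5.12 in control and at 4.47, 4.66 and 5.00 with PTH. That probe was above background on only 2 control arrays and 1 PTH array, whereas the first was so on every array. The groups did not overlap in either probe, but the first was higher with PTH by 0.32 and the second lower by 0.50, so these arrays give no single direction for Traf5. Traf6, the adaptor shared by CD40, RANK and the Toll-like receptors, differed by 0.17 (95% interval -0.24 to 0.59), and its other 2 probes gave -0.26 and 0.24. Traf3, which restrains the alternative NF-κB pathway, was at 8.88, 8.81 and 8.80 in control and at 8.84, 8.92 and 8.77 with PTH, with a change of 0.02 and an interval from -0.25 to 0.29. Traf7, a ubiquitin ligase, differed by 0.07 (-0.28 to 0.42).

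The IKK genes and the NF-κB subunits, the core of the pathway, had overlapping groups in all 7 tested genes. Over all genes 21.9% were without overlap, so 7 genes are too few to set the core apart. Ikbkb, the gene of the catalytic subunit IKKβ, differed by 0.09 (95% interval -0.21 to 0.40). For Ikbkg, which encodes the scaffold NEMO, the change was 0.02 (-0.26 to 0.30), while its other tested probes gave -0.24 and -0.30. Ikbke, the gene of a kinase related to TBK1, was at 6.31, 6.25 and 5.99 in control and at 5.50, 6.10 and 5.57 with PTH, a difference of -0.46 (SE 0.19; limma adjusted p = 0.311), with 1 PTH array inside the control range. Rela, which encodes the p65 subunit, was at 9.69, 9.77 and 10.14 in control and at 9.82, 9.65 and 10.05 with PTH. Its change of -0.02 had an interval from -0.42 to 0.37, and it was 0.14 with scaling by array medians. Nfkb1, the gene of p50, gave -0.13 (-0.51 to 0.25), and 0.03 under that scaling. The genes of the alternative pathway, Relb and Nfkb2, stood somewhat above 0, at 0.29 (-0.08 to 0.65) and 0.27 (-0.14 to 0.68). Leaving out 1 array moved Nfkb2 to 0.14 (without the first control array) or 0.41 (without the second PTH array), and Relb to 0.18 (without the first control array).

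The IκB genes include direct NF-κB targets. Nfkbiz, which encodes a nuclear IκB that assists transcription of a subset of inflammatory genes, was at 8.27, 8.32 and 8.35 in control and at 8.88, 8.58 and 8.67 with PTH. All PTH arrays were above all control arrays, by 0.40 (SE 0.13), with a limma adjusted p of 0.204. Nfkbia, the gene of IκBα with the matched letters shown above, was at 9.06, 8.89 and 9.17 in control and at 9.25, 9.37 and 9.28 with PTH. It was higher by 0.26 (SE 0.13; limma adjusted p = 0.398), and the second probe was higher by 0.37 with overlapping groups. Nfkbie gave 0.36 (95% interval -0.11 to 0.82) and Nfkbib -0.06 (-0.70 to 0.58), both with overlapping groups.

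The TNFAIP genes have unlike functions, and several of them are named for their induction by TNF. Tnfaip3, which encodes A20, an enzyme that edits ubiquitin and ends NF-κB signalling, was at 5.85, 4.97 and 5.61 in control and at 5.86, 6.43 and 6.48 with PTH. The difference of 0.78 (SE 0.26, limma adjusted p = 0.218) was 0.30 with no background correction (limma adjusted p = 0.120). The lowest PTH array lay barely above the highest control array, and 1 control array was not above background. Tnfaip2, which encodes a protein of cell surface protrusions, was at 9.92, 9.77 and 9.92 in control and at 9.46, 9.38 and 9.27 with PTH. It was lower by 0.50 (SE 0.12; limma adjusted p = 0.111). Its other 2 probes also lay lower in every PTH array, by 0.29 and by 0.77, the latter with an adjusted p of 0.0590. Among the members with more than 1 tested probe, Tnfaip2 and Traf1 were the genes in which every probe separated the groups in the same direction. Tnfaip1, an adaptor of a ubiquitin ligase, was at 11.07, 11.18 and 11.04 in control and at 11.21, 11.29 and 11.31 with PTH, higher by 0.17 (95% interval -0.10 to 0.44). Tnfaip8 and Tnfaip8l2 differed by 0.04 and 0.10.

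**Figure D3:**
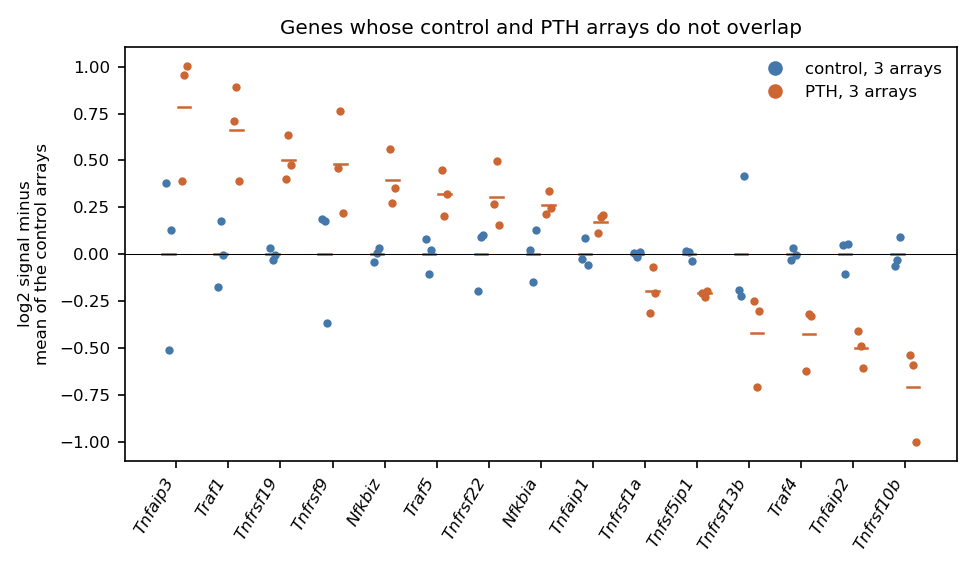
Normalised log2 signal of each array minus the mean of the control arrays, for the 15 tested genes whose groups do not overlap, with control in blue, PTH in orange and short bars for the group means. In Tnfaip3 the lowest PTH array lies level with the highest control array, whereas in Tnfrsf19, Tnfaip2 and Tnfrsf10b the groups stand clearly apart.

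The agreement of probes could be examined in the 20 members with more than 1 tested probe. All probes had the same sign in 7 of them (Nfkbia, Tnfaip2, Tnfrsf1b, Tnfrsf21, Tnfrsf22, Tnfsf13b and Traf1) and not in the other 13, Tnfrsf10b and Traf5 among them. The probe sequences were not used here, so transcripts or exons could not be assigned to the probes that differed.

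**Figure D4:**
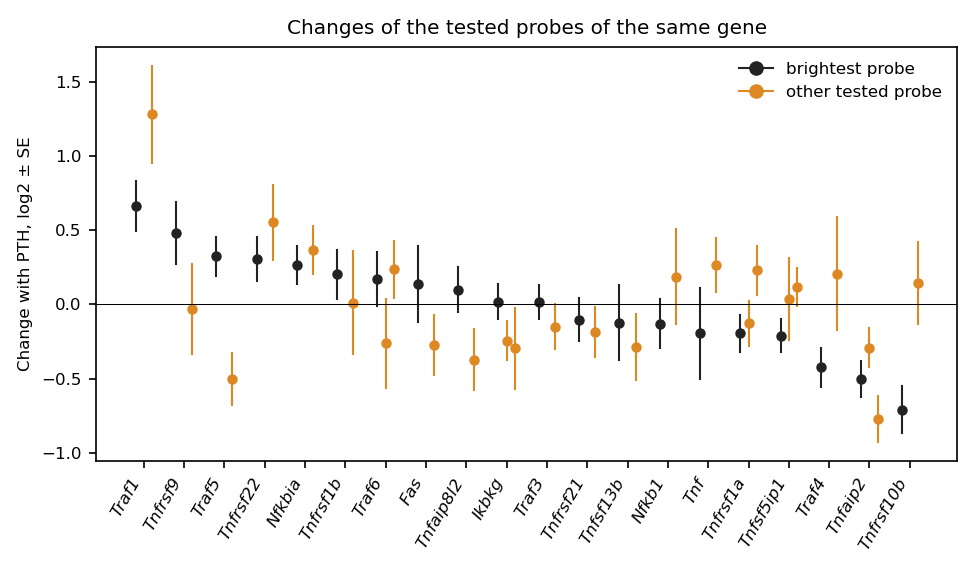
Change with PTH on the log2 scale, with its standard error, of each tested probe of the 20 genes with more than 1 tested probe. Black is the brightest probe of a gene and orange the others, and the orange probes of Traf5 and Tnfrsf10b lie on the other side of 0 from the black ones.

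Signalling genes outside the symbol rule (adaptors, kinases, related receptors and regulators) also had no gene that passed. Of 46 genes listed, 34 were on the array under these names, 26 were tested and none passed the adjusted threshold in limma, while 4 (15.4%, against 14.9% of all genes) had an unadjusted p under 0.05, 3 higher and 1 lower, and 3 (11.5%, against 21.9% of all genes) had groups that did not overlap. Malt1, the protease and scaffold that carries antigen receptor signals to IKK, was at 5.21, 5.87 and 6.01 in control and at 6.95, 6.52 and 6.70 with PTH, higher by 1.02 (SE 0.23; limma adjusted p = 0.0816). Cyld, a deubiquitinase that restrains NF-κB, differed by 0.26, and Myd88, the adaptor of Toll-like and interleukin-1 receptors, by -0.30 (limma adjusted p = 0.336 and 0.324).

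Genes widely known as NF-κB targets lay on both sides of 0. Of 36 listed, 27 were tested, and in 17 of these (63.0%, against 21.9% of all genes) the groups did not overlap, 7 higher and 10 lower with PTH. Their median change was -0.01, against 0.01 over all genes. Mmp9, the gelatinase, rose by 0.73 (SE 0.13; limma adjusted p = 0.0433) and Lcn2, the siderophore-binding lipocalin 2, fell by 0.84 (SE 0.12; limma adjusted p = 0.0173), and no other gene of the list passed. Neither passed once any 1 of the 6 arrays was left out, when calls over all genes also fell, from 207 to between 48 and 78. With no background correction 5 of the list passed, beside 4.91% of all genes. With only probes above background at p under 0.01 on all 6 arrays 6 passed, beside 3.92%, and with scaling by array medians 0, beside 0.86%. Mmp9 is also one of the osteoclast markers and Lcn2 one of the neutrophil markers. All 5 tested osteoclast markers (of 7 on the array) lay higher in every PTH array, and 3 passed the adjusted threshold. All 8 tested neutrophil markers (of 9) had lower means with PTH, 7 of them without overlap, and 5 passed, against 1.73% of all genes. The part of either cell type in the changes of Mmp9 and Lcn2 was not tested. The chemokine genes did not go one way. Cxcl1, which attracts neutrophils, was at 6.14, 6.17 and 6.19 in control and at 7.05, 6.80 and 6.70 with PTH, higher by 0.68 (limma adjusted p = 0.0557). Ccl5 was higher by 0.69, but Ccl2, which attracts monocytes, was lower by 0.85, at 4.92, 5.59 and 5.78 with PTH against 5.94, 6.55 and 6.34, and Il1b, the interleukin-1β gene, was lower by 0.63 (limma adjusted p = 0.170, 0.175 and 0.132).

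**Figure D5:**
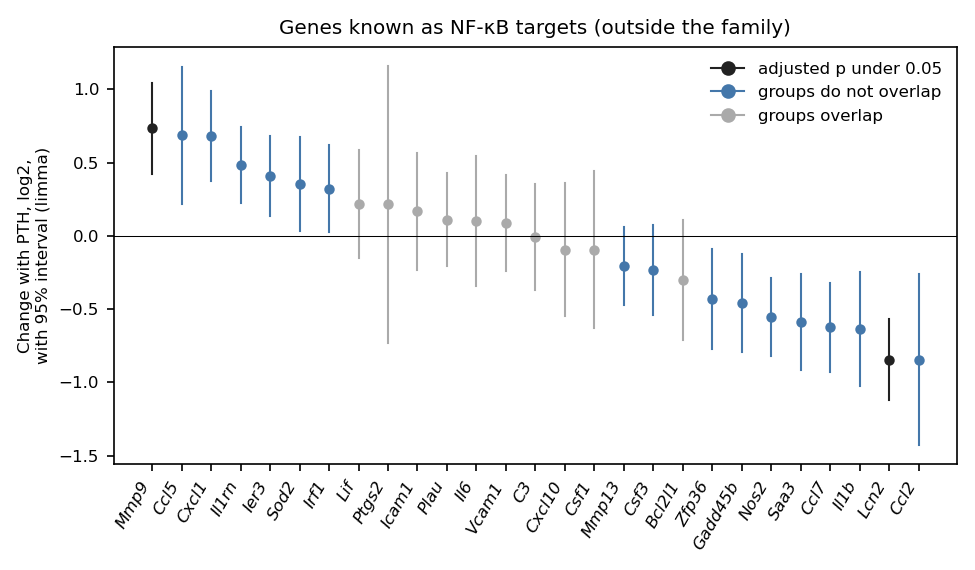
Change with PTH on the log2 scale, with the 95% interval from limma, of the 27 tested genes known as NF-κB targets, in order of size. Black points passed an adjusted p of 0.05 (Mmp9 and Lcn2), blue points have groups that do not overlap, and grey points have groups that overlap; 7 genes without overlap lie above 0 and 10 below.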

How the data were processed

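RNA of control and PTH bone tubes was measured on single-colour bead arrays, 3 per group. The authors deposited linear signal intensity per probe and array, without normalization, each paired with GenomeStudio's detection p-value (version not given in the sources used here). In R 4.3.3, limma 3.58.1 applied neqc: normexp background correction (negative controls inferred from those p-values; offset 16), quantile normalization and log2. Probes with a detection p under 0.05 on at least 3 of 6 arrays were tested (16214) with lmFit and eBayes, Benjamini-Hochberg adjusted over all of them, and a gene was its brightest tested probe. A gene of 3 against 3 arrays tested alone cannot go below an exact p of 0.1. The code was tested on simulated data.

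Groups came from the sample labels. Of the 72 symbols, 63 matched current RefSeq names and 9 older ones. Named genes were the largest changes among members without overlap, the members with the highest signal, and a list of main pathway genes. Members, lists and tests were chosen with earlier results of these data known. The number of arrays limits the precision. Alternatives covered background, normalization, detection filter, probe choice, test, replicate block and leaving out each array. The values of 1 tested member are counted but not reported here.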

Additional observations from a re-analysis of the deposited data

How the results depend on the processing

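The number of genes called depended on the setting. Over all genes, where 207 were called, quantile normalization with no background correction called 588, an offset of 50 401, scaling by array medians 103 (60.2% of them higher, against 39.6%), and a strict detection filter (p under 0.01, all 6 arrays) 340. The replicate block called 44, probe means 270, Student's t-test 1783 unadjusted and 91 adjusted, and fits without 1 array 48 to 78. Members called were 3 with no background correction (receptors 2, TNFAIP 1; Tnfrsf10b adjusted p = 0.00104, Tnfaip2 0.00650, Tnfrsf19 0.0297), 2 with the offset of 50 (Tnfrsf10b and Tnfaip2, 1 of each role), 3 with the strict detection filter (receptors 2, TNFAIP 1; the same genes, with 34 members tested) and 1 with probe means (Traf1, a TRAF adaptor). The unadjusted t-test called 10, with 3 TRAF adaptors, 2 each of receptors, TNFAIP and IκB genes, and Tnfsf5ip1. No member was called in the other settings, the replicate block and all fits without 1 array included. Members without overlap were 7 with array medians and 9 with probe means (shares of all genes not counted), and the median change of members was 0.17 with array medians. The signalling genes outside the rule had 1 call with no background correction, 1 with the offset of 50, 1 with array medians, 3 with the unadjusted t-test and 1 with the adjusted. The NF-κB targets had 5, 4, 0, 1 (no detection filter), 6 (strict filter), 0 (replicate block), 4 (probe means) and 15 (unadjusted t-test), and 0 to 0 without 1 array, so the calls of Mmp9 and Lcn2 were lost whichever array was left out. Genes with all probes in one direction numbered 4 with the strict filter and 6 to 11 without 1 array.

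With array medians the sign turned for Nfkb1 (0.0323), Rela (0.142), Tnfrsf12a (0.00395) and Tnfrsf21 (0.0527). With probe means it turned for Fas (-0.0682), Ikbkg (-0.173), Nfkb1 (0.0287), Tnf (0.0359), Traf3 (-0.0664) and Traf5 (-0.0893). Without 1 array the changes ran from -0.19 to 0.00334 for Tnfrsf21, -0.0633 to 0.27 for Cd40, -0.098 to 0.36 for Fas, -0.0116 to 0.0754 for Ikbkg, -0.13 to 0.11 for Rela, -0.52 to 0.00775 for Tnf, -0.0229 to 0.0514 for Traf3, -0.0614 to 0.15 for Traf7 and -0.40 to 0.0712 for Tnfsf13b. The cause of these shifts was not tested. Same-numbered arrays deviated together with r = 0.07, 0.06 and 0.27. Between unlike numbers, r was 0.07 for arrays 1 and 2 but -0.13 to -0.14 for array 3 against the others. Probes above background rose with the number in both groups, from 15758 to 17369 in control and from 15504 to 17374 with PTH. The main fit did not take the numbers as pairs, and what arrays of the same number share was not tested. A fit with slide as a block was not run, since neither labels nor columns name a slide. Dim members such as Tnf and Tnfaip3 lay near background, which limits their values. With no background correction the changes of dim members were smaller (Tnfaip3 0.30, Traf1 0.30, Tnfrsf9 0.20, Traf5 0.13, Tnfrsf13b -0.14, Ikbke -0.18, Traf4 -0.22, Relb 0.14, Nfkb2 0.13).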
